A study of Mus musculus with 9 samples.

Results

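Transcripts of 7 genes of the neurotrophin system were followed in sorted epidermal cells: the ligand genes Ntf3, Ntf5 and Bdnf, the receptor tyrosine kinase genes Ntrk2 and Ntrk3, and the receptor genes Ngfr and Sort1. They were taken by symbol from a table of 49672 rows, and each symbol matched 1 row. The libraries came from the epidermis of newborn (P0) mice of the Sox2-GFP reporter strain, sorted by flow cytometry. The 3 Merkel libraries hold GFP-positive cells, called Merkel cells in the labels. The 6 libraries of basal keratinocytes hold GFP-negative cells with both SCA1 and CD49F on their surface. All animals carried the reporter and no treatment is given. The titles give sample numbers 1 to 3, each with 1 Merkel library, a first and a second basal library. What sets the second apart from the first is not given, nor is what a number stands for (mouse, litter or pool). The reporter marks any cell in which Sox2 is active, so the gate is not specific to 1 cell type.

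Neurotrophins are secreted growth factors on which sensory and other neurons depend for survival and for innervating their targets. They are made as precursors, which proteases cleave. The mature proteins bind Trk receptor tyrosine kinases, while the p75 receptor, encoded by Ngfr, binds all of them and joins with sortilin, encoded by Sort1, to bind the uncleaved precursors. In skin, epithelial cells supply neurotrophins to the touch neurons that end on Merkel cells, and neurotrophin-3 is known to be needed for the innervation of Merkel cells in mice.

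Values are TPM, a unit of transcript abundance, which are scaled by transcript length and to the same total in each library. Read depth is therefore unknown, and low values are the least precise. Between 13012 and 13575 rows reached 1 TPM in Merkel libraries and between 13043 and 13649 in basal libraries. The share of small and mitochondrial RNAs was 43.1% to 53.4% in Merkel libraries, highest in replicate 2, against 40.6% to 46.1% in the basal ones. The sort was visible in the markers: all 10 Merkel cell markers, Sox2, Atoh1 and Krt8 among them, were higher in Merkel libraries, and their summed level was 914 to 1220 TPM in Merkel libraries against 2.41 to 6.05 TPM in basal libraries. The reporter follows Sox2, so the difference of Sox2 comes from the gate itself. Sox2 did not pass 0.16 TPM and Atoh1 0.42 TPM in basal libraries, so both were tested only through their Merkel values. The same holds for Krt20, Isl1, Insm1, Pou4f3 and Chga, under 1 TPM in every basal library. Averaged by sample number, Krt18 and Piezo2 did not reach 1 TPM in each basal value. Of this list Krt8 alone could thus have been tested on its basal values. Of 8 basal keratinocyte markers 6 were lower and 0 higher by limma, with 0 higher at an unadjusted p under 0.05. At that unadjusted p 15.5% of all genes tested were higher and 34.1% lower, which is the background for each such count. Krt14 remained at 2187 ± 119 TPM in Merkel cells against 7731 ± 279 TPM in basal keratinocytes (SD, n = 3).

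Fold changes are differences of log2(TPM + 1), Merkel minus basal, with the 2 basal libraries of a number averaged, which leaves 3 values against 3. A gene was tested if at least 3 of these 6 values reached 1 TPM, and counted as called when it changed 2-fold or more with an adjusted p below 0.05 (limma, Benjamini-Hochberg over all 13822 genes tested). Of all genes tested 6.79% were called higher and 5.27% lower. The median over all genes tested was -0.15, so a value of 0 lies slightly above the middle of all genes. Of the 7 genes 4 were tested, Ntf3, Ntf5, Ntrk2 and Sort1. The other 3, Bdnf, Ntrk3 and Ngfr, stayed below the filter and are given as levels.

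Ntf3, which encodes neurotrophin-3, was the most abundant of the 7 transcripts in Merkel cells and the one called higher there. It lies on chromosome 6 from 126101412 to 126166910 on the minus strand (mm10), and no other annotated gene overlaps it. RefSeq (GRCm38.p6) gives 2 start sites, and the 250 bases before each are shown because Ntf3 is the gene with the clearest difference. They are read 5′ to 3′ on the strand of the gene, and capitals mark matches, on either strand, to the GC box GGGCGG and to the E-box CANNTG, which basic helix-loop-helix proteins bind. The first lies at chr6:126166745-126166994 and the second at chr6:126164961-126165210, both on the minus strand.
Ntf3 start site 1: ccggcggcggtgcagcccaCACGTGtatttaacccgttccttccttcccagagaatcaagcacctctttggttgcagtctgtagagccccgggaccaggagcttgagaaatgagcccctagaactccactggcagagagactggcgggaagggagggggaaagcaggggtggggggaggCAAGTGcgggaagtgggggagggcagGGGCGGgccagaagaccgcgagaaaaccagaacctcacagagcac
Ntf3 start site 2: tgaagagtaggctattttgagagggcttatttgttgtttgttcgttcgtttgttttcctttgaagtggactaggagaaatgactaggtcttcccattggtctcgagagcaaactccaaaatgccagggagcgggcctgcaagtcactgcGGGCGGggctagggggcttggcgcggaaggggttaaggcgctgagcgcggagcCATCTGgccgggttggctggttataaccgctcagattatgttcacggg

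The window of start site 1 holds 2 E-boxes and 1 GC box. That of start site 2 holds 1 E-box and 1 GC box, and its E-box also matches the form CAGATG, read on the other strand as CATCTG. A window of this length holds CANNTG in 66.2% of the 32851 promoter windows in the table, GGGCGG in 32.7% and CAGATG in 14.4%. Neither Ntf3 window holds the TATA box TATAAA, present in 12.4% of all windows. The Sox motif ACAATG, in 10.7% of them, was not found, nor was the cAMP response element TGACGTCA, in 1.55%. These are matches of letters only, and binding was not measured.

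Ntf3 was at 36.2, 31.4 and 42.8 TPM in Merkel replicates 1 to 3. In second basal libraries it was at 6.19, 4.23 and 5.34 TPM and in first basal libraries at 6.59, 2.89 and 5.58 TPM. Every Merkel library lay far above every basal library. The mean was 36.8 ± 5.73 TPM in Merkel cells and 5.14 ± 1.44 TPM in basal keratinocytes (SD, n = 3 each), 7.17 times as high in Merkel cells. The log2 fold change was 2.65 ± 0.20 (SE, limma, adjusted p = 1.6e-05), with a 95% interval of 2.20 to 3.09, and it lay 2.80 above the median of all genes tested. It was the 216th largest increase of all genes tested. In these bulk libraries, fewer cells with a transcript and less transcript per cell cannot be told apart.

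Ntf5, which encodes neurotrophin-4, a ligand of the receptor TrkB, was at similar levels in both cell types. It lies on chromosome 7 from 45413695 to 45417179. It was at 5.58, 3.89 and 5.32 TPM in Merkel replicates 1 to 3, at 6.97, 5.76 and 6.45 TPM in second basal libraries and at 6.40, 4.65 and 5.81 TPM in first basal libraries. The groups overlap, and replicate 2 was lowest in each kind of library. Within each sample number the Merkel library was below both basal libraries. The log2 fold change was -0.24 ± 0.16 (limma, adjusted p = 0.25), with a 95% interval of -0.60 to 0.11, so that a 2-fold change either way lies outside the interval. With the replicate block the adjusted p was 0.112.

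Bdnf encodes brain-derived neurotrophic factor, the other ligand of TrkB. The gene lies on chromosome 2 from 109674700 to 109727007 and has several promoters, 7 start sites in RefSeq, which a gene total does not separate. It was at 1.74, 0.86 and 1.5 TPM in Merkel replicates 1 to 3, at 0.23, 0.28 and 0.16 TPM in second basal libraries and at 0.06, 0.13 and 0.07 TPM in first basal libraries. All Merkel libraries were above all basal libraries, with means of 1.37 ± 0.455 TPM in Merkel cells and 0.155 ± 0.0458 TPM in basal keratinocytes (SD, n = 3). With 2 of 6 values at 1 TPM it was not tested. The exact two-sided permutation test of 3 against 3 values gave p = 0.1, the smallest it can give. With no filter on low values the log2 fold change of Bdnf was 1.02 ± 0.15 (limma, adjusted p = 0.0057), which meets the call. In that fit 3.39% of 28451 genes were called higher.

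The balance among these 3 ligand genes differed between the cell types. Within a library, Ntf3 was 6.49, 8.08 and 8.05 times Ntf5 in Merkel replicates 1 to 3, against 0.734 to 0.888 times in second and 0.621 to 1.03 times in first basal libraries. Of the summed TPM of Ntf3, Ntf5 and Bdnf, Ntf3 made up 83.2% to 86.9% in Merkel libraries, against 37.7% to 50.5% in the basal ones. Bdnf made up 2.38% to 4.0% in Merkel libraries, against 0.46% to 2.73% in the basal ones. A ratio within a library does not depend on how the library was scaled.

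**Figure D1:**
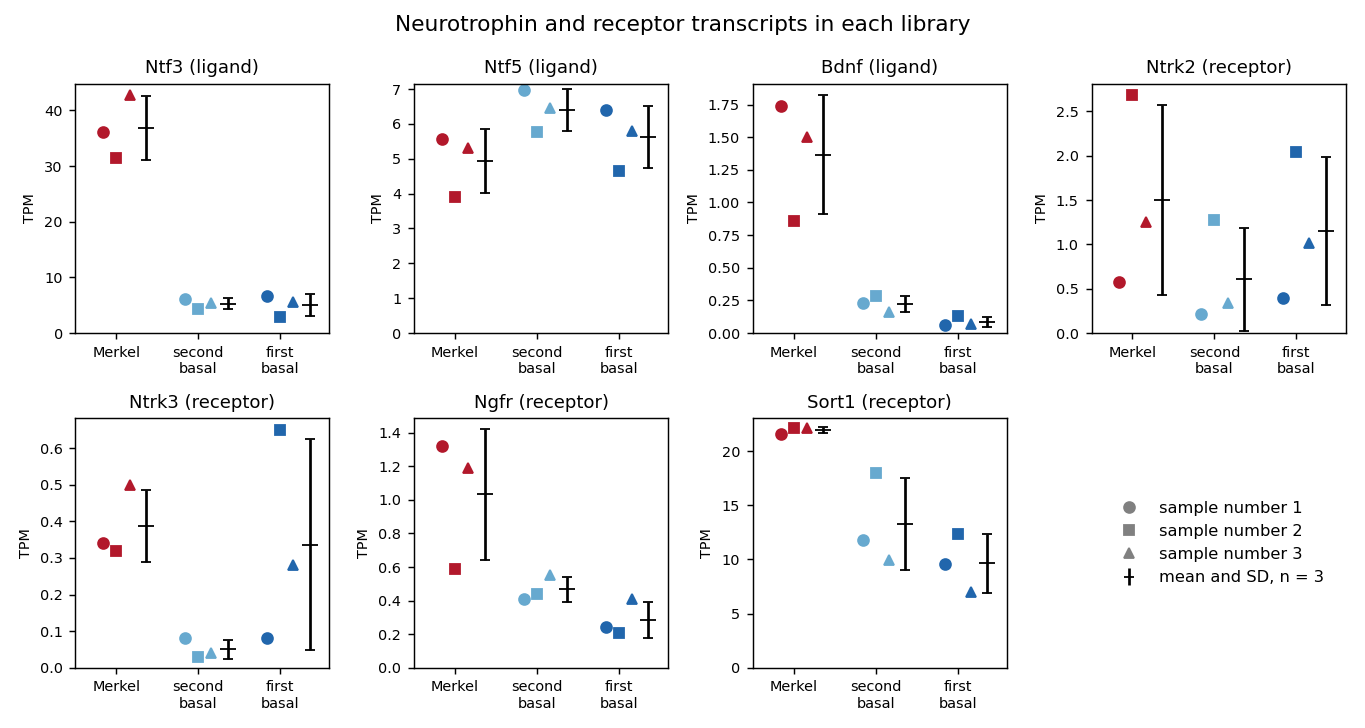
TPM of each of the 7 genes (y axis, linear, from 0, own scale in each panel) in the 3 Merkel, 3 second basal and 3 first basal libraries. Symbols give the sample number and black bars the mean and SD of 3 libraries. Ntf3 sits between 31.4 and 42.8 TPM in Merkel libraries and does not pass 6.59 TPM in basal libraries, whereas Ntf5 overlaps.

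Sort1 encodes sortilin, a sorting receptor of the Vps10p family that also carries cargo between compartments of the cell, so it is not particular to neurotrophins. It lies on chromosome 3 from 108284082 to 108361511. It was at 21.6, 22.2 and 22.1 TPM in Merkel replicates 1 to 3, at 11.8, 18.0 and 9.97 TPM in second basal libraries and at 9.54, 12.4 and 6.97 TPM in first basal libraries. Merkel libraries hardly differed among themselves and were all above the basal libraries, among which replicate 2 was highest of both kinds. The means were 22.0 ± 0.294 TPM in Merkel cells and 11.5 ± 3.43 TPM in basal keratinocytes (SD, n = 3). The log2 fold change was 0.93 ± 0.18 (limma, adjusted p = 0.0037), with a 95% interval of 0.52 to 1.35. The difference thus passed the adjusted p and fell short of the 2-fold limit. Of all genes tested 13.2% were higher at that adjusted p at any size. Sort1 lay 1.09 above the median of all genes. It met the call with median-ratio scaling (1.12, adjusted p = 0.0031), with quantile normalization (1.12), with small and mitochondrial RNA removed (1.05), against first basal libraries alone (1.14, adjusted p = 0.00165) and without basal replicate 2 (1.14). Against second basal libraries alone it was at 0.73 (adjusted p = 0.0142).

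Ngfr, on chromosome 11 from 95568818 to 95587735, was low in both cell types. It was at 1.32, 0.59 and 1.19 TPM in Merkel replicates 1 to 3, at 0.41, 0.44 and 0.55 TPM in second basal libraries and at 0.24, 0.21 and 0.41 TPM in first basal libraries. Merkel replicate 2 was only just above the highest basal library. The means were 1.03 ± 0.389 TPM in Merkel cells and 0.377 ± 0.0895 TPM in basal keratinocytes (SD, n = 3), and the exact two-sided permutation test gave p = 0.1, the smallest possible. Mean TPM of Ngfr was 2.74 times as high in Merkel cells. With no filter and after the pseudocount, the log2 fold change of Ngfr was 0.55 ± 0.16 (limma, adjusted p = 0.049), under the 2-fold limit. In that fit 8.67% of genes were higher at this adjusted p. Ngfr is also known as a marker of Schwann cells and other neural crest cells, whose factor Sox10 was at 3.03 to 6.36 TPM in Merkel libraries, at 4.47 to 5.97 TPM in second and at 0.45 to 1.08 TPM in first basal libraries.

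Counting all 7 genes, Ntf3, Bdnf, Sort1 and Ngfr had every Merkel library above every basal library. Among all 28451 genes above 0 in any library this held for 9.55%.

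The receptor kinase genes did not show that separation. Ntrk2 encodes TrkB, the receptor of brain-derived neurotrophic factor and neurotrophin-4, and lies on chromosome 13 from 58806569 to 59133970. It was at 0.58, 2.68 and 1.25 TPM in Merkel replicates 1 to 3, at 0.21, 1.27 and 0.34 TPM in second basal libraries and at 0.39, 2.04 and 1.01 TPM in first basal libraries. The spread between sample numbers was larger than that between cell types. The log2 fold change was 0.41 ± 0.33 (limma, adjusted p = 0.36), with a 95% interval of -0.34 to 1.16. Within each sample number the Merkel library was above both basal libraries, and with the sample number as a replicate block the adjusted p was 0.024 at the same log2 fold change of 0.41, still under 2-fold. In that blocked fit 16.2% of genes were higher at this adjusted p.

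In each kind of library Ntrk2 was highest in number 2, next in number 3 and lowest in number 1, a pattern chosen after its values were seen. Of all genes tested 12.9% had some order of the sample numbers shared by all 3 kinds of library, and 1.17% had this one. Among the listed marker genes Cd207 and Cd74, a lectin of Langerhans cells and the invariant chain of antigen-presenting cells, had it too. Of the other tested immune markers, Ptprc and Csf1r did not: both were lowest in number 2 in Merkel and in first basal libraries, Ptprc at 3.04, 2.08 and 4.67 TPM in Merkel replicates 1 to 3 and at 56.9, 21.5 and 39.6 TPM in first basal libraries. Cd207 was at 0.14, 3.03 and 0.66 TPM in Merkel replicates 1 to 3, at 0.13, 4.59 and 0.33 TPM in second basal libraries and at 0.74, 9.26 and 2.92 TPM in first basal libraries. The labels do not say how the sample numbers differ, and the part of other cell types in the level of Ntrk2 was not tested.

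**Figure D2:**
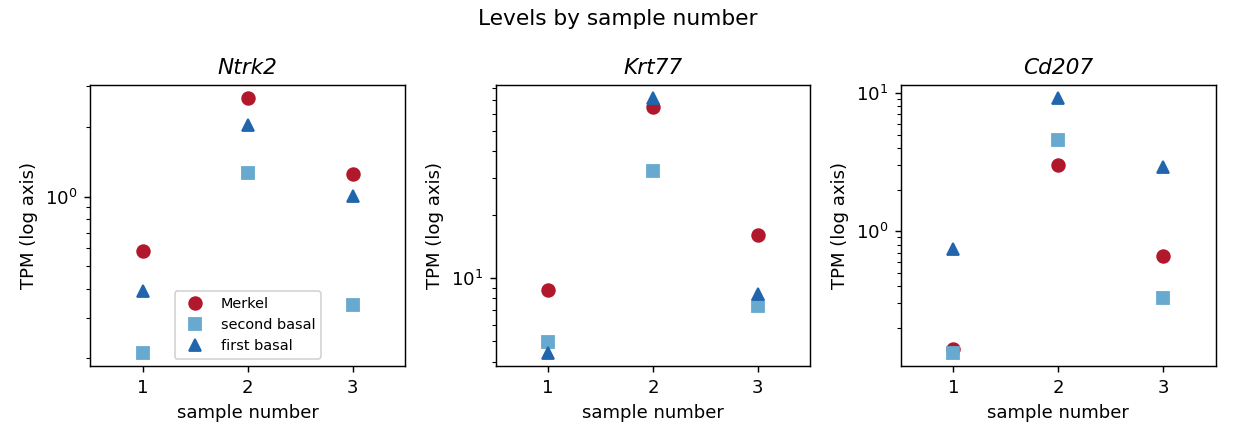
TPM (y axis, logarithmic, own scale in each panel) of Ntrk2, Krt77 and Cd207 by sample number (x axis) in Merkel (red circles), second basal (light blue squares) and first basal libraries (dark blue triangles), 1 library per symbol. All 3 genes are highest in number 2 and lowest in number 1 in each kind of library; Ntrk2 reaches 2.68 TPM in Merkel replicate 2.

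Ntrk3 encodes TrkC, the receptor of neurotrophin-3, and lies on chromosome 7 from 78175959 to 78738012. It was at 0.34, 0.32 and 0.50 TPM in Merkel replicates 1 to 3, at 0.08, 0.03 and 0.04 TPM in second basal libraries and at 0.08, 0.65 and 0.28 TPM in first basal libraries. It was the lowest of the 7 genes in each Merkel library and reached 1 TPM in no library. First basal replicate 2 was above every Merkel library, so the groups overlap. The exact two-sided permutation test gave p = 0.1, and with no filter the log2 fold change of Ntrk3 was 0.24 ± 0.09 (limma, adjusted p = 0.099). Both Trk genes have transcripts that encode receptors with and without the kinase. The annotation lists 7 protein-coding transcripts of Ntrk2, with coding sequences of 1398 to 2463 bases, and 6 of Ntrk3. Gene totals do not say which form was present.

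By level, Merkel libraries gave the order Ntf3, Sort1 and Ntf5 with no overlap between neighbours, then Ntrk2, Bdnf and Ngfr, whose ranges overlap, and last Ntrk3. Basal libraries gave Sort1 first, at 6.97 to 18.0 TPM. Ntf5 and Ntf3 followed at 4.65 to 6.97 TPM and 2.89 to 6.59 TPM, ranges that overlap. The other 4 genes lay between 0.03 and 2.04 TPM and overlap among themselves. No gene annotated as overlapping Bdnf, Ntrk3 or Sort1 passed 0.21 TPM in any library where the table lists it. Those overlapping Ntrk2 were looked up, and no values were found for them.

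**Figure D3:**
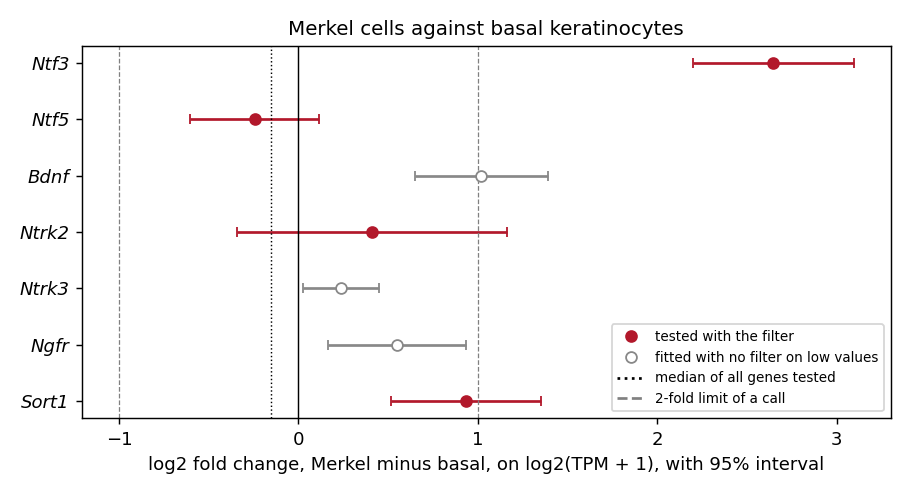
Log2 fold change on log2(TPM + 1), Merkel minus basal (x axis), with its 95% interval from limma, for each of the 7 genes (y axis), n = 3 values against 3. Filled points passed the filter on low values and open points come from the fit with no filter; Ntf3, at 2.65, is the gene whose interval lies wholly beyond the 2-fold limit.

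Second and first basal libraries were compared because each sample number has both. By limma 0 of the 4 tested genes were called, and 0 had an unadjusted p under 0.05. Of all genes tested 4.35% were called, and 21.3% had an unadjusted p under 0.05. The log2 differences, second minus first, were 0.10 ± 0.26 for Ntf3, 0.17 ± 0.14 for Ntf5, -0.40 ± 0.35 for Ntrk2 and 0.42 ± 0.26 for Sort1 (SE, n = 3 against 3). The interval of Ntf3 ran from -0.52 to 0.72. With the sample number as a block, the difference of Sort1 had an adjusted p of 0.029, under 2-fold, where 17.3% of genes passed at any size. Marker lists of other cell types differed widely between these libraries. The summed level of 7 melanocyte markers was 106 to 153 TPM in second and 16.0 to 34.7 TPM in first basal libraries. That of 6 immune and Langerhans cell markers was 35.5 to 240 TPM in second and 530 to 987 TPM in first basal libraries. Ntf3 was at 5.25 ± 0.983 TPM in second and 5.02 ± 1.91 TPM in first basal libraries (SD, n = 3). Bdnf, low in both, was at 0.223 ± 0.0603 TPM in second and 0.0867 ± 0.0379 TPM in first basal libraries (SD, n = 3).

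Markers of other cell types also moved between Merkel and basal libraries. Of 7 melanocyte markers, all tested, 5 were called higher, and their sum was 152 to 214 TPM in Merkel libraries. Against first basal libraries alone 7 were called higher, and against second basal libraries alone limma called 0. Of 10 markers of dermal fibroblasts and the dermal papilla 7 were tested and 5 called higher: Col1a1, Col1a2, Col3a1, Pdgfra and Corin. Col1a2 was at 38.3 ± 4.69 TPM in Merkel cells and 5.12 ± 0.847 TPM in basal keratinocytes (SD, n = 3). Col3a1 was at 29.9 and 0.965 TPM, Pdgfra at 6.38 and 0.0833 TPM, and Corin at 9.06 and 0.12 TPM. Col1a1, Pdgfra and Corin were under 1 TPM in every basal library, so they were tested only through their Merkel values. The averaged basal values of Col3a1 did not all reach 1 TPM, so it could not have been tested on these alone. Vim went the other way, at -0.74 ± 0.21 (limma, adjusted p = 0.019), under 2-fold. The fibroblast sum, held mostly by Vim and Dcn, was 282 to 445 TPM in Merkel libraries, 262 to 360 TPM in second and 387 to 904 TPM in first basal libraries. Twist2 was at 0.43 to 0.78 TPM in Merkel libraries and listed at 0 in basal libraries. Of 10 Schwann cell and glia markers 5 were tested and S100b called higher, and Gfap did not pass 0.06 TPM in any library. S100b did not pass 0.27 TPM in basal libraries, so it was tested only through its Merkel values. The glial sum, held mostly by Erbb3, was 47.1 to 65.3 TPM in Merkel libraries, against 40.5 to 61.0 TPM in basal ones. Of 10 sensory neuron markers the 2 tested, Snap25 and Calca, were higher, the sum being 10.4 to 17.8 TPM in Merkel libraries, against 0.19 to 0.61 TPM in basal ones. Snap25 did not pass 0.14 TPM and Calca 0.37 TPM in basal libraries. Neither could therefore have been tested without being high in Merkel libraries. The neurofilament genes Nefl and Nefm did not pass 0.15 TPM in Merkel libraries, though every Merkel library was above every basal library. Tac1 was at 0.27, 0.85 and 1.04 TPM in Merkel replicates 1 to 3. In basal libraries Tac1, Nefm and Scn9a were listed at 0. Scn10a was listed at 0 in Merkel libraries. Of 5 endothelial markers Pecam1 was tested, at 0.97 ± 0.15 (limma, adjusted p = 0.00092), short of 2-fold after the pseudocount. Pecam1 was at 1.76 ± 0.433 TPM in Merkel cells and 0.408 ± 0.0785 TPM in basal keratinocytes (SD, n = 3). It did not pass 0.66 TPM in basal libraries, so it was tested only through its Merkel values. Of 6 immune markers 4 were tested and 2, Ptprc and Csf1r, were lower, with a sum of 37.6 to 130 TPM in Merkel libraries. Both were at Merkel levels in second basal libraries: Ptprc was at 2.08 to 4.67 TPM in Merkel, 1.84 to 3.86 TPM in second and 21.5 to 56.9 TPM in first basal libraries. The part of these cells in the levels of Ntf3, Bdnf, Ngfr and Sort1 was not tested. The summed Merkel cell markers were 241 times as high in Merkel as in basal libraries, and Ntf3 7.17 times.

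The other genes of the pathway were read from 5 further lists. Among receptors of the sortilin family, Sorcs1 was called higher, 1 of 3 tested of 4 genes: it was at 6.38 ± 0.659 TPM in Merkel cells and 0.273 ± 0.165 TPM in basal keratinocytes (SD, n = 3). Its log2 fold change was 2.54 ± 0.15 (limma, adjusted p = 3.0e-06). Sorcs1 was at 0.11 to 0.56 TPM in basal libraries, so it was tested only through its Merkel values. Sorcs2, which also binds precursor forms, was at 0.98 ± 0.19 (limma, adjusted p = 0.0030), short of the limit after the pseudocount. Its level was 2.81 ± 0.901 TPM in Merkel cells and 0.927 ± 0.166 TPM in basal keratinocytes (SD, n = 3). The averaged basal values of Sorcs2 did not all reach 1 TPM, so it could not have been tested on these alone. Sorl1, the most abundant of the 4, was at -0.22 ± 0.24 (adjusted p = 0.51).

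Of 9 genes for the cleavage of neurotrophin precursors 6 were tested and 2 called higher, 0 lower by limma, with 4 higher and 1 lower at an unadjusted p under 0.05. The called genes were Cpe, carboxypeptidase E, which trims prohormones and also sorts them, and the convertase Pcsk1, both of the regulated secretory pathway. Cpe was at 200 ± 32.6 TPM in Merkel cells and 7.54 ± 1.24 TPM in basal keratinocytes (SD, n = 3), and Pcsk1 at 13.8 ± 1.86 TPM in Merkel cells and 0.0317 ± 0.0208 TPM in basal keratinocytes. Their log2 fold changes were 4.57 ± 0.17 and 3.84 ± 0.14. Pcsk1 was at 0 to 0.11 TPM in basal libraries, so it was tested only through its Merkel values. Furin, the convertase of the constitutive pathway, was at 26.6 ± 6.49 TPM in Merkel cells and 33.0 ± 8.35 TPM in basal keratinocytes (-0.29 ± 0.22, adjusted p = 0.34). Plat, the plasminogen activator, was at 0.67 ± 0.15 (adjusted p = 0.0071) and the convertase Pcsk7 at -0.60 ± 0.14 (adjusted p = 0.0096), both under 2-fold. Every Merkel library was below every basal library for Pcsk7. Pcsk6, also higher at the unadjusted p, was at 0.41 ± 0.15 (limma, adjusted p = 0.056). Plg, the plasminogen gene, did not pass 0.03 TPM in any library.

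Of 13 partners of the p75 receptor 12 were tested and Bex1 was called higher, at 29.2 ± 4.57 TPM in Merkel cells and 6.81 ± 0.878 TPM in basal keratinocytes (SD, n = 3; log2 fold change 1.96 ± 0.15, limma, adjusted p = 2.0e-05). By limma 0 were called lower, with 1 higher and 4 lower at an unadjusted p under 0.05, against 34.1% lower of all genes. The 4 were Adam17, Arhgdia, Irak1 and Rtn4r. Adam17, the sheddase that cuts p75, was at -0.62 ± 0.12 (adjusted p = 0.0038), under 2-fold. By the mean over the 9 libraries Arhgdia (115 TPM) was the most abundant, ahead of Rtn4 (109 TPM). In Merkel libraries alone Rtn4 exceeded Arhgdia, at 116.5 ± 11.1 TPM against 94.5 ± 7.20 TPM (SD, n = 3). Between the cell types Rtn4 overlapped, at 0.14 ± 0.13 (limma, adjusted p = 0.44). Arhgdia was at -0.40 ± 0.11 (adjusted p = 0.020), also under 2-fold. The list had a median of 0.07, against -0.15 over all genes tested.

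Of the 36 genes described here that carry Trk signals onward 34 were tested, and limma called 0 of these, with 3 higher and 14 lower at an unadjusted p under 0.05, against 15.5% and 34.1% of all genes. Shc4, an adaptor, was at 2.66 ± 0.115 TPM in Merkel cells and 0.88 ± 0.204 TPM in basal keratinocytes (SD, n = 3). It was short of 2-fold after the pseudocount (log2 fold change 0.995 ± 0.13, adjusted p = 0.00045), and like Frs2 was chosen after its values were seen. Averaged on the log scale, its basal values were all under 1 TPM, so it was tested only through its Merkel values. Also higher at the unadjusted p were Mapk3 (0.57 ± 0.13, limma, adjusted p = 0.0086) and Gab2 (0.54 ± 0.17, adjusted p = 0.032), both under 2-fold. The median was -0.28, against -0.15 over all genes tested. The most abundant, the small GTPase gene Hras, was at 131 ± 12.0 TPM in Merkel cells and 153 ± 7.03 TPM in basal keratinocytes (-0.23 ± 0.12, adjusted p = 0.16). The adaptor Frs2 was at 5.83 ± 0.863 TPM in Merkel cells and 9.56 ± 1.29 TPM in basal keratinocytes (-0.62 ± 0.15, adjusted p = 0.0095), under 2-fold.

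Of 11 genes known to respond to neurotrophins 8 were tested and limma called 0, with 2 higher and 2 lower at an unadjusted p under 0.05, against 15.5% higher and 34.1% lower of all genes. Egr2 was at 13.4 ± 0.8 TPM in Merkel cells and 7.33 ± 0.272 TPM in basal keratinocytes (SD, n = 3; 0.80 ± 0.12, adjusted p = 0.00076) and Arc at 0.90 ± 0.26 (adjusted p = 0.021), both immediate early genes. Egr1, another, was at -0.92 ± 0.27 (adjusted p = 0.024). The most abundant, Fos, was at 880 ± 299 TPM in Merkel cells and 1395 ± 276 TPM in basal keratinocytes (SD, n = 3), with adjusted p = 0.073. Vgf, a secreted peptide precursor, was below the filter, at 0.63 to 1.26 TPM in Merkel libraries, against 0 to 0.10 TPM in basal ones.

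**Figure D4:**
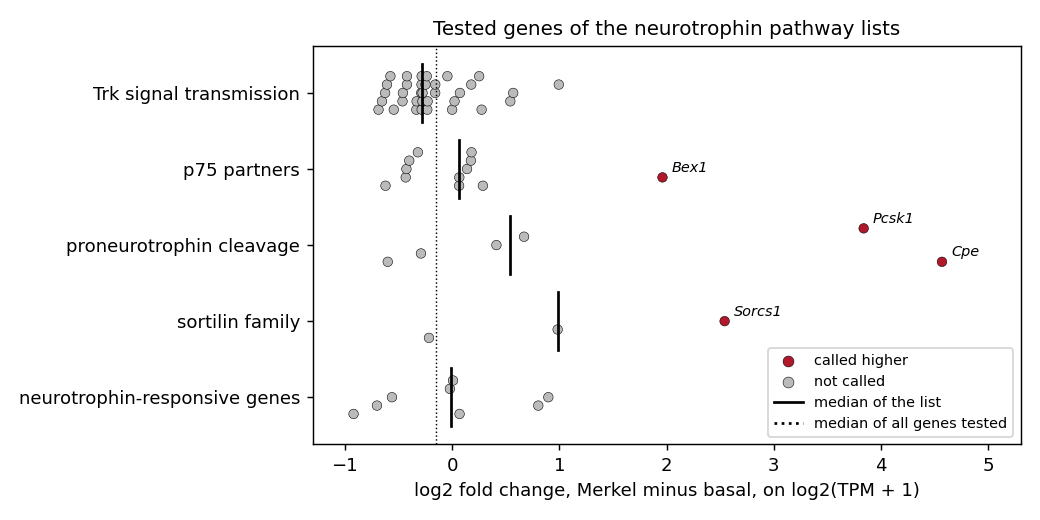
Log2 fold change on log2(TPM + 1), Merkel minus basal (x axis), of the tested genes of 5 lists (rows), 1 point per gene, called genes in red and named; vertical offsets only separate points. The solid bar is the median of a list and the dotted line that of all genes tested, -0.15; called genes lie from 1.96 for Bex1 to 4.57 for Cpe.

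The genes most like each tested gene were sought among 12462 other protein-coding genes tested, by Pearson's correlation of log2(TPM + 1) over the 9 libraries, which share their sort groups and sample numbers. Nearest to Ntf3 were Krt7, a simple epithelial keratin (0.994), Cnnm2 (0.993) and Kcnip3 (0.992). Krt7 was at 52.6 ± 15.2 TPM in the 3 Merkel libraries and 3.99 ± 1.33 TPM in the 6 basal libraries (SD). Nearest to Ntf5 were Slc16a10 (0.998), Tshz1 (0.997) and Pskh1 (0.997). Nearest to Sort1 were Sap18b (0.983), Ddit4 (0.980) and Fabp5 (0.979), a fatty acid binding protein of keratinocytes. Nearest to Ntrk2 were Sdr16c5 (0.944), Smim5 (0.943) and Krt77 (0.938). Krt77, a keratin of the suprabasal epidermis, was at 8.78, 64.8 and 16.1 TPM in Merkel replicates 1 to 3, at 4.96, 32.2 and 7.36 TPM in second basal libraries and at 4.37, 72.0 and 8.36 TPM in first basal libraries, which is the same order of sample numbers as Ntrk2.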

How the data were processed

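Total RNA of 9 sorted libraries was made into stranded libraries and read in pairs, per the labels' protocols. Trimmomatic, STAR and RSEM with build mm10 are named in the submitters' processing notes, without versions. For the annotation and the strand setting nothing is stated in the labels. The deposited table holds TPM per gene as computed by the authors, with no counts or depth. Of 49671 Ensembl identifiers, 49326 matched a GENCODE M21 symbol without the version suffix (43749 with the same version) and 345 did not.

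Values were transformed to log2(TPM + 1), and both basal libraries with the same number entered as their mean of these logs. Genes were kept at 1 TPM or more in at least 3 of 6 values. The test was limma 3.58.1 (R 4.3.3) fitted with trend, two-sided, and p was adjusted by Benjamini-Hochberg over every gene tested. A gene low in basal keratinocytes could enter only with each of its 3 Merkel values at 1 TPM, and such a gene tends to be called by construction. The fit was tested on simulated data, drawn without pairing by sample number and with changes placed only in genes of higher mean level. That simulation therefore does not cover the pairing or genes near the filter. Exact permutation tests were used for single genes below the filter. The labels do not say that sample numbers are separate animals, so p-values measure the spread between these samples, which may be technical.

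Same-numbered libraries deviated together: the correlations of Merkel with basal deviations were 0.38, 0.36 and 0.20 for numbers 1 to 3, and those of second with first basal deviations 0.51, 0.54 and 0.41. The numbers can therefore be read as pairing the samples, but the main fit holds no block. Its SEs, intervals, adjusted p and calls leave the pairing out. The blocked fit is given for Ntf5, Ntrk2 and Sort1, and for Ntf3 it gave an adjusted p of 3.5e-08 (limma). For the listed genes only the fit without a block is given. Alternatives were another pseudocount, other filters, 2 other scalings, removal of small and mitochondrial RNA, the replicate block, either basal library alone, and leaving out each replicate; tested genes were held fixed in the last. Promoter sequences are from RefSeq, GRCm38.p6, and 4 of the 7 genes matched (11 windows). Tables were made with Python 3.11.15 and pandas 2.3.3, plots with matplotlib 3.10.9.

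The 7 genes and all lists were chosen with earlier results of these data known. Named are the 7 genes, of each pathway list up to 4 called genes (lowest adjusted p) and the most abundant one, members where a count is 5 or fewer, and the 3 nearest patterns. Marker lists are given by counts and sums, with defining genes named. Furin, Plg, Frs2 and Vgf fall outside the rule, and these genes and Shc4 were chosen after their values were seen. Some genes are not reported here, and the counts of the lists leave them out.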

Additional observations from a re-analysis of the deposited data

How the results depend on the processing

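Ntf3 kept its call under all 15 alternatives, with log2 fold changes of 2.44 to 2.85, and leaving out 1 replicate gave 2.44 to 2.80. Ntf5 was called under none of 15, with values of -0.33 to -0.08. Ntrk2 was called under none of the 14 alternatives that tested it, with 0.09 to 0.82, and it was not tested at 5 TPM. Sort1, at 0.93, met the call with median-ratio scaling (1.12), quantile normalization (1.12), small and mitochondrial RNA removed (1.05) and first basal libraries alone (1.14); against second basal libraries alone it was at 0.73, and leaving out 1 replicate gave 0.75 to 1.14. The log2 difference of Bdnf, 1.02 and untested, became a call at 1.02 with no filter, 1.10 with median-ratio scaling and 1.47 with small and mitochondrial RNA removed, since these fits included it. A pseudocount of 0.1 TPM moved Bdnf to 2.54, Ngfr to 1.23 and Ntrk3 to 1.03, by construction, as these genes lie near or under the pseudocount of 1. Ntrk3, at 0.24, was at 0.41 with small and mitochondrial RNA removed, 0.073 against first and 0.40 against second basal libraries alone.

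Genes called lower numbered 1281 with a pseudocount of 0.1 TPM, 449 with a filter of 5 TPM and 442 with median-ratio scaling, against 729, and genes called higher 486 with a filter of 5 TPM, against 938. Median-ratio scaling moved the median of all genes to 0.02, from -0.15, and the share of calls that were higher to 71.2%, against 56.3%. The replicate block gave 960 higher and 759 lower calls and changed no call among the 7 genes; the blocked adjusted p of Sort1 was 0.000297.

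Between second and first basal libraries 586 genes were called, 640 with the replicate block, and 2 to 741 when 1 sample number was left out (5 without number 1, 2 without number 3, where 4 libraries remain). There Ntf3 ranged from -0.066 without number 2, a change of sign, to 0.19, and a pseudocount of 0.1 TPM gave 0.79 for Bdnf, 0.58 for Ngfr and -1.32 for Ntrk3. The blocked Sort1 difference of 0.42 had an adjusted p of 0.029, under 2-fold. TPM without read depth limits what can be said of Bdnf, Ngfr, Ntrk2 and Ntrk3.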
